A study of Mus musculus with 4 samples.

Results

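Calprotectin, the dimer of S100A8 and S100A9 that neutrophils and monocytes make in bulk, is sensed by other cells through receptors of the innate immune system. The genes of that sensing machinery followed here by symbol were Tlr4, Ly96 and Cd14, which make up the lipopolysaccharide receptor, Tlr2, the further reported calprotectin receptors Bsg, Cd33 and Ager, the shared adaptor Myd88 and the brake Irak3. All 9 members were listed in all 4 libraries, out of 31017 gene symbols in the bone marrow files and 32245 in the tumor files. They were chosen by name and not by a measured value, with earlier results of these data known. The libraries were droplet-based single-cell RNA libraries of mouse CD45+ (hematopoietic) cells. KO bone marrow and KO tumor came from S100a8fl/flVav-Cre+/- mice, which carry a floxed S100a8 gene and a Cre driven by Vav that deletes it in hematopoietic cells. WT bone marrow and WT tumor came from S100a8fl/flVav-Cre-/- mice that carry the same floxed alleles without Cre. Marrow was taken from tumor-free mice, and tumors had been grown from LLC (Lewis lung carcinoma), a mouse lung cancer line. Each of the 4 groups was 1 library pooled from 3 mice, so no spread between mice could be measured, no test between groups was possible, and every interval below is a 95% interval for counting error only.

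As background, Toll-like receptor 4 binds bacterial lipopolysaccharide only together with its co-receptor MD-2, the product of Ly96, and CD14 hands the ligand over to this pair. Toll-like receptors 2 and 4 both signal through the adaptor MyD88 to NF-kB and inflammatory genes, and IRAK-M, the product of Irak3, is a kinase-dead relative of the IRAK kinases that damps this signal in myeloid cells. Calprotectin has been reported to act on Toll-like receptor 4 and on RAGE, the product of Ager. S100A9 has also been reported to bind basigin, the product of Bsg, an abundant membrane glycoprotein that accompanies lactate transporters, and CD33, a Siglec (a sialic acid-binding receptor) on myeloid cells.

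All 8 of these genes whose positions are given here are protein coding in GENCODE M21 on build GRCm38. Tlr4 lies at chr4:66827584-66930284 on the plus strand, Ly96 at chr1:16688051-16709611 on the plus strand and Tlr2 at chr3:83836272-83841767 on the minus strand. Myd88 lies at chr9:119335934-119341411 and Irak3 at chr10:120141648-120202130, both on the minus strand. Bsg lies at chr10:79704491-79711969 on the plus strand, Cd33 at chr7:43524216-43544428 on the minus strand and Ager at chr17:34597862-34600936 on the plus strand. RefSeq windows of 250 bases before a start site (GRCm38.p6) matched 5 of the 9 members, with 6 windows in all. They were searched on both strands for an NF-kB-like motif (GGG, any 2 bases, TT, any base, CC, in 4.11% of 32851 such windows), TTGCNNAA (C/EBP-like, in 9.56%) and GAGGAA (PU.1-like, in 23.3%), motifs of factors active in myeloid cells. Tlr2 held 1 NF-kB-like match whose first base lay 172 bases before the RefSeq start site, and Cd33 held 1 PU.1-like match 226 bases before it. The Cd33 window lies wholly within the GENCODE gene given above, and the Tlr2 window overlaps its GENCODE gene in part. The 30 bases around each match are shown because these are the only matches in the 6 windows, with the match in capitals, from chr3:83841761-83841790 for Tlr2 and chr7:43533380-43533409 for Cd33, both on the minus strand. The window of Irak3, chr10:120202131-120202380 on the minus strand, is shown whole because Irak3 is a member more than 1.5-fold higher in KO tumor and the window lies outside its gene models; it held none of the 3 motifs. A match is a run of letters and not a shown binding site.
Tlr2: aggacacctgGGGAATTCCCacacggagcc
Cd33: acagtggaatggGAGGAAgccacaaagaag
Irak3: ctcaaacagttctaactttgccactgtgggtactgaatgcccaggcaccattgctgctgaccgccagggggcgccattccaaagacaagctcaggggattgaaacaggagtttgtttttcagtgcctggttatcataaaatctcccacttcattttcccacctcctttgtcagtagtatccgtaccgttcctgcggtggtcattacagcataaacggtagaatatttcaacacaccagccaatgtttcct

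After removal of doublets, 9887 cells of KO bone marrow, 7591 of WT bone marrow, 10507 of KO tumor and 10474 of WT tumor remained, with median depths of 2734, 2264, 7977 and 6395 UMIs (unique molecules) per cell. The KO library was the deeper one in both tissues. The deleted gene followed the labels: S100a8 gave 6 UMIs in KO bone marrow against 2078230 in WT bone marrow, and 84 in KO tumor against 11153 in WT tumor. Ptprc, which encodes the sorted marker CD45, had a UMI in 79.4% to 91.5% of cells per library. S100a9, the partner gene, was still read in the KO: 99.7% of KO bone marrow cells and 67.7% of KO tumor cells had a UMI of it, against 98.4% and 4.69% in the WT libraries. Free RNA from other cells can give such a UMI, so these are not shares of cells that express S100a9. Neutrophil-like cells numbered 3103 in KO tumor and 214 in WT tumor. The 4 libraries shared between 21 and 46 cell barcodes per pair. Cells were clustered per tissue without the 9 members and named from marker lists as "X-like". A level is a gene's UMIs per 1000000 UMIs of a class (CPM), leaving S100a8, S100a9, mitochondrial, ribosomal protein and hemoglobin genes out of the total, and levels are compared within a gene only.

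In bone marrow, Tlr4, Tlr2, Cd33 and Myd88 were highest in mature neutrophil-like cells among the 10 classes with at least 100 cells in each library, while Bsg was lowest there. Tlr4 was 72.5 CPM in KO against 48.5 CPM in WT mature neutrophil-like cells, above immature neutrophil-like cells at 22.1 and 16.6 CPM and granulocyte progenitor-like cells at 24.0 and 15.2 CPM. Monocyte-like cells held Tlr4 at 14 CPM (KO) and 12.1 CPM (WT), and B-like cells at 8.78 and 11 CPM. Macrophage-like cells, left out of that order for their 90 WT cells, had the highest Tlr4 level of KO bone marrow at 84.3 CPM (56.0 to 122, 28 UMIs in 171 cells), an interval that overlapped that of mature neutrophil-like cells, and 34.7 CPM (6 UMIs) in WT. This class was mixed. At clustering resolution 2, a macrophage-like cluster of 87 KO and 48 WT cells was led by Vcam1 and C1q genes. Another, of 86 KO and 48 WT cells, scored highest on the fibroblast list and was led by Cxcl12, Igfbp5, Gas6 and Sparc. Tlr4 was not measured in these clusters apart. Ly96, the co-receptor gene, was spread differently: mature neutrophil-like cells had 28.0 CPM in KO against 38.6 CPM in WT, monocyte-like cells 22.0 and 28.2 CPM, and immature neutrophil-like cells 3.87 and 5.03 CPM. The immature cells thus lay below the 14 and 13 CPM of Ly96 in B-like cells. Cd14 was low throughout the marrow. In WT it was 19.8 CPM in mature neutrophil-like, 17.2 CPM in monocyte-like and 3.77 CPM in immature neutrophil-like cells, and no UMI of it was found among the 328 KO and 320 WT T-like or NK-like cells, which allows up to 3.33 and 4.72 CPM. The mature neutrophil-like and monocyte-like levels of Cd14 in WT did not separate beyond counting error.

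Tlr2 had its highest marrow level in mature neutrophil-like cells as well, at 277 CPM in KO against 327 CPM in WT, followed in the classes of at least 100 cells per library by monocyte-like cells at 64.7 and 65.3 CPM. Cd33 followed neutrophil maturation, from 51.8 and 48.3 CPM in granulocyte progenitor-like cells to 322 and 302 CPM in immature and 674 and 807 CPM in mature neutrophil-like cells. Its level in monocyte-like cells was 32.0 CPM in KO against 32.4 CPM in WT, beside 19 to 33.4 CPM in the lymphoid classes over both libraries. Ager was read thinly, with 163 KO and 35 WT UMIs in mature and 172 and 74 UMIs in immature neutrophil-like cells, and these 2 classes had its highest levels among classes of at least 100 cells. Bsg ran the other way: erythroid-like cells led with 753 CPM in each library, and mature neutrophil-like cells were lowest with 84.0 CPM in KO against 67.8 CPM in WT. Myd88 was present in every class, from 27.4 and 29.3 CPM in erythroid-like cells to 184 and 139 CPM in mature neutrophil-like cells. Irak3 was highest in basophil or mast-like cells, with 149 and 143 CPM from 83 and 127 cells. Granulocyte progenitor-like, immature and mature neutrophil-like cells held Irak3 at 70.3 to 97.8 CPM over both libraries, while T-like or NK-like cells held 2 UMIs in KO and 1 in WT.

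**Figure D1:**
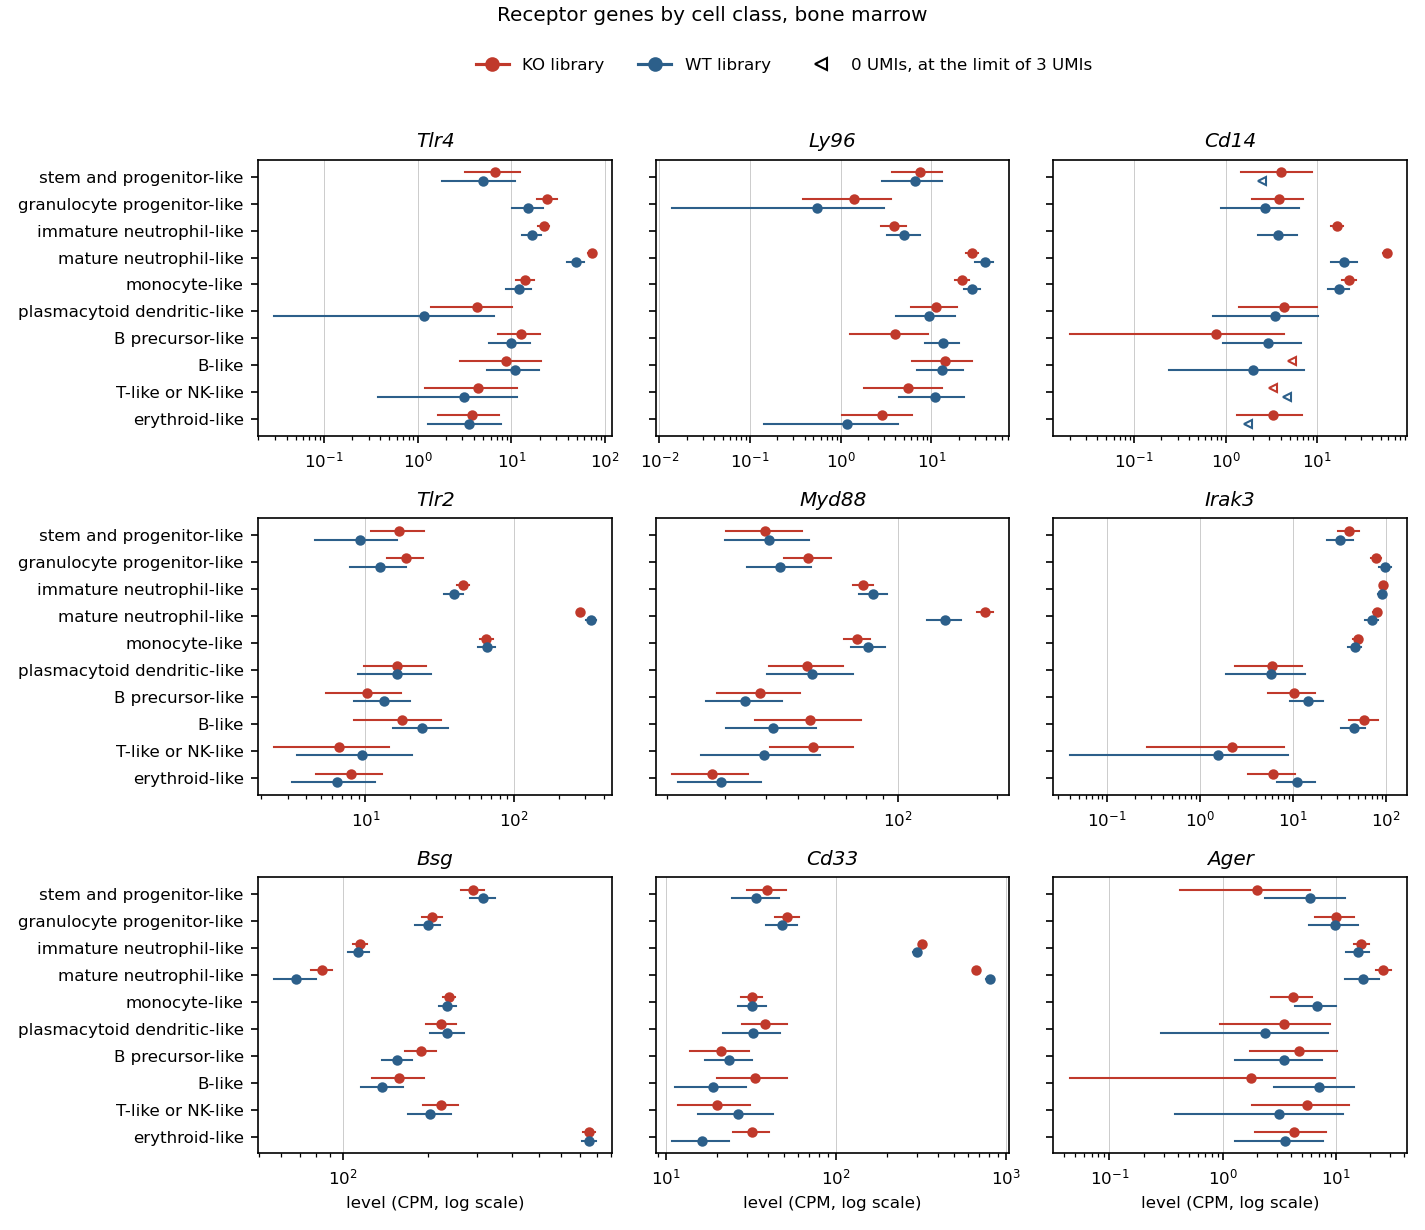
Level of each of the 9 genes by cell class in bone marrow, in CPM on a log axis, with KO (red) and WT (blue) as separate points, 95% counting intervals as lines and open triangles at the limit of 3 UMIs where a class had none. Tlr4, Tlr2, Cd33 and Myd88 peak in mature neutrophil-like cells among the 10 classes drawn, whereas Bsg peaks in erythroid-like cells at 753 CPM in each library.

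In the tumor, Tlr4 and Cd14 were highest in neutrophil-like cells and second in monocyte-like or macrophage-like cells. Tlr4 was 115 CPM in KO against 145 CPM in WT neutrophil-like cells, at 48.8 and 41.2 CPM in monocyte-like or macrophage-like cells, and at 14.1 and 8.32 CPM in conventional dendritic type 2 or monocyte-derived dendritic-like cells (type 2 dendritic-like below). T-like cells had 3.80 CPM of Tlr4 in KO and 0.560 CPM in WT. Cd14 was far above its marrow level, with 7132 and 5627 CPM in neutrophil-like, 4002 and 2079 CPM in monocyte-like or macrophage-like and 1837 and 804 CPM in type 2 dendritic-like cells. Marrow and tumor values come from separate libraries of different mice, processed with different Cell Ranger versions. Ly96 was highest in monocyte-like or macrophage-like cells of KO tumor at 65.8 CPM. In WT tumor the 61.0 CPM of neutrophil-like cells, from 29 UMIs, and the 52.9 CPM of monocyte-like or macrophage-like cells did not separate beyond counting error. Migratory dendritic-like cells, which carry antigen to lymph nodes, held Ly96 at 39.5 and 25.3 CPM but Tlr4 at only 3.43 and 0.703 CPM, near the T-like levels.

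Tlr2 in the tumor was read at 297 CPM in KO against 246 CPM in WT monocyte-like or macrophage-like cells and at 213 and 286 CPM in neutrophil-like cells. Cd33 was highest in neutrophil-like cells, at 184 CPM in KO against 246 CPM in WT. Monocyte-like or macrophage-like cells held Cd33 at 40.0 and 19.9 CPM, and WT T-like cells at 0.210 CPM. Bsg was broad: all 6 classes compared between the tumor libraries lay between 210 and 582 CPM, T-like cells at 328 and 317 CPM among them. Myd88 was also broad, with 87.2 and 119 CPM in monocyte-like or macrophage-like cells and 32.8 and 36.4 CPM in T-like cells. Irak3 was concentrated in myeloid cells, with 98.8 and 48.4 CPM in neutrophil-like, 71.1 and 35.6 CPM in monocyte-like or macrophage-like and 8.81 and 3.78 CPM in T-like cells. Ager, the gene of RAGE, was nearly unread in the tumor: 43 UMIs among 10507 KO cells and 28 among 10474 WT cells.

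**Figure D2:**
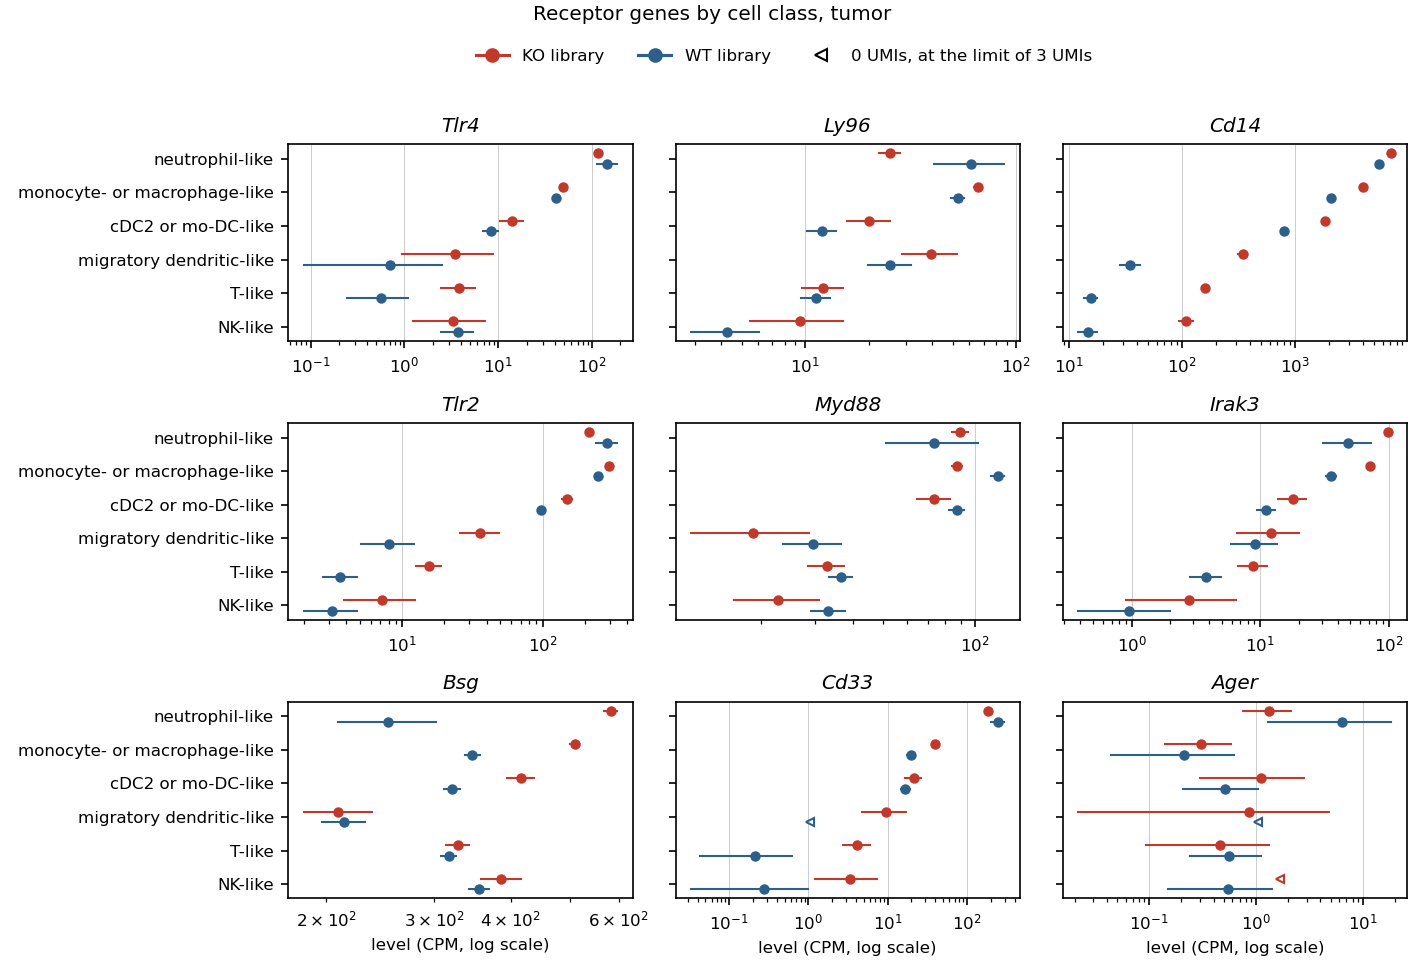
Level of each of the 9 genes by cell class in the tumor, in CPM on a log axis, with KO (red) and WT (blue) as separate points, 95% counting intervals as lines and open triangles at the limit of 3 UMIs where a class had none. Tlr4 and Cd14 are led by neutrophil-like cells (Cd14 7132 CPM in KO, 5627 CPM in WT), Bsg is read in every class, and Ager is close to the floor everywhere.

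Shares of cells with a UMI were compared at equal depth. With every tumor cell thinned to 2000 UMIs, a Tlr4 UMI was found in 18.3% of KO and 22.4% of WT neutrophil-like cells and in 7.65% and 8.24% of monocyte-like or macrophage-like cells. In T-like cells, taken here as the lymphocyte background, it was found in 0.0723% and 0.172%. Unthinned, the Tlr4 shares were 31.2% and 22.4% in neutrophil-like cells (median 3796 and 2409 UMIs) and 1.33% and 0.22% in T-like cells (median 5893 and 4859 UMIs). Thinning left out 164 KO and 62 WT neutrophil-like cells. Tlr4 was read above the lymphocyte background in tumor neutrophil-like and monocyte-like or macrophage-like cells of both libraries. In bone marrow, thinned to 1000 UMIs, 5.84% of KO and 3.48% of WT mature neutrophil-like cells had a Tlr4 UMI, against 0.347% of WT T-like or NK-like cells and none of 316 KO ones, which allows up to 0.949%. Tlr2 was found in 19.4% and 20.7% of those thinned mature neutrophil-like cells, and Cd33 in 41.9% and 42.5%.

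**Figure D3:**
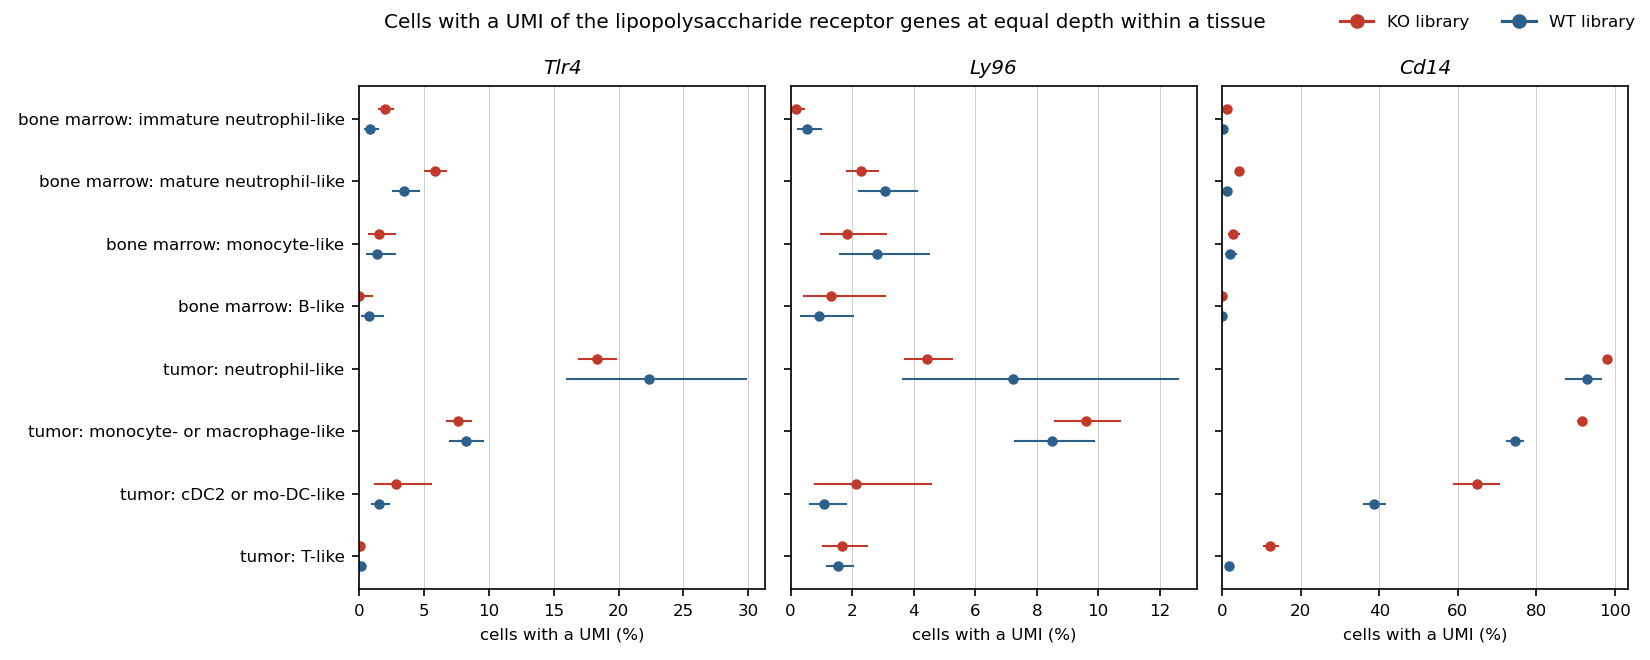
Percent of cells with at least 1 UMI of Tlr4, Ly96 or Cd14 in 4 bone marrow and 4 tumor classes, after thinning to a fixed number of UMIs per cell in each tissue, with KO in red, WT in blue and exact 95% binomial intervals. Tlr4 is found in 18.3% of KO and 22.4% of WT tumor neutrophil-like cells, and in 0.0723% and 0.172% of T-like cells.

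UMIs of both chains of the lipopolysaccharide receptor were found together in a minority of cells. Tlr4 alone was itself read in a minority of cells at equal depth. A low joint share therefore does not show how often both chains are expressed in a cell. A UMI of both Tlr4 and Ly96 was found in 389 of 3278 KO monocyte-like or macrophage-like tumor cells (11.9%, interval 10.8% to 13%) and in 132 of 2000 WT cells (6.6%, 5.55% to 7.78%). At equal depth these shares were 0.793% and 0.592%. In tumor T-like cells the pair was found in 2 of 1426 KO cells and 0 of 3637 WT cells, the latter allowing a share of up to 0.0825%. Of the 389 KO cells with both chains, 388 also had a Cd14 UMI, as had 128 of the 132 WT cells. Over this whole class Cd14 was 4002 CPM in KO and 2079 CPM in WT, at median depths of 10360.5 and 7933 UMIs. A Cd14 UMI in these cells thus says little about the pair. Tumor neutrophil-like cells held Tlr4 with Ly96 in 86 of 3103 KO cells (2.77%) and 2 of 214 WT cells (0.935%). In bone marrow the same pair was found in 16 of 3823 KO and 5 of 1727 WT mature neutrophil-like cells and in 12 of 721 KO and 9 of 597 WT monocyte-like cells. Tlr4 and Tlr2 were read together more often in the tumor, in 21.3% of KO and 15.2% of WT monocyte-like or macrophage-like cells, or 2.57% and 2.75% at equal depth. The thinned shares of both pairs lay within 1.5-fold of each other between KO and WT in this class.

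Between KO and WT bone marrow, Cd14 was the member that differed most, and it was higher in KO neutrophil-like cells. A gene was counted in a class where both libraries had at least 100 cells and where it had at least 50 UMIs over both. The higher of its KO and WT levels also had to be at least 0.2 of its highest level in any class of that tissue. Cd14 and Tlr4 in immature neutrophil-like cells and Tlr4 in granulocyte progenitor-like cells passed that limit in KO only. The same held for Myd88 in B precursor-like and Bsg in B-like cells. Of 36 such member and class pairs in bone marrow, 4 were more than 1.5-fold higher in KO and 0 more than 1.5-fold lower, beside 3.79% higher and 4.35% lower of the 65506 pairs of other genes. The median ratio of KO over WT was 1.08 for the members and 0.999 for the other genes. Cd14 was 16.5 CPM (171 UMIs) in KO and 3.77 CPM (18 UMIs) in WT immature neutrophil-like cells, a ratio of 4.38 (2.69 to 7.57) in a class where 2.1% of other genes were more than 1.5-fold higher. In mature neutrophil-like cells it was 57.6 and 19.8 CPM, a ratio of 2.91 (2.09 to 4.14) beside 5.87% of other genes past 1.5-fold. Without the clusters of under 100 cells in either library that ratio was 3.24. In monocyte-like cells Cd14 was 22.5 CPM in KO against 17.2 CPM in WT, a ratio of 1.31 (0.959 to 1.80) that stayed under the threshold. Taken one at a time, 3 neutrophil clusters gave Cd14 ratios of 2.26, 2.20 and 3.53, and 1 monocyte cluster gave 1.61. The fifth cluster counted, cluster 2 of the mature neutrophils, gave 1.498 (0.557 to 5.67) from 4 WT UMIs, just under the threshold. Of the other genes, 2.28% to 18.3% were more than 1.5-fold higher in KO in the bone marrow neutrophil clusters compared. In the monocyte clusters these shares were 2.39% and 2.55%. The clusters are parts of the same pair of libraries and not separate support. The B-like and the T-like or NK-like cells of KO bone marrow held 0 UMIs of Cd14.

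Tlr4 was 1.58 times as high in KO granulocyte progenitor-like cells (24.0 against 15.2 CPM, interval 1.00 to 2.54), beside 1.53% of other genes higher there, and the ratio dropped to 1.25 with classes taken from WT cells only. In mature neutrophil-like cells the Tlr4 ratio of 1.49 (1.2 to 1.88) lay just under the threshold and in immature ones it was 1.33 (1.03 to 1.74), whereas with all UMIs in the total both passed it, at 1.74 and 1.60. That choice of total moved the median log2 ratio of all genes up by 0.22 in mature and by 0.26 in immature neutrophil-like cells. Ager in mature neutrophil-like cells was 26.1 against 17.3 CPM, a ratio of 1.51 (1.04 to 2.24) that lay at the threshold and under it in 3 of 10 other settings, the lowest at 1.21. The other receptors differed less in bone marrow. In mature neutrophil-like cells the ratio was 0.848 for Tlr2 (0.775 to 0.929), 0.835 for Cd33 (0.789 to 0.885), 0.725 for Ly96 (0.552 to 0.960), 1.33 for Myd88 (1.16 to 1.52) and 1.13 for Irak3 (0.935 to 1.37). Bsg in erythroid-like cells gave a ratio of 1.00 (0.929 to 1.08). Mature neutrophil-like cells of KO and WT were not drawn evenly from the same clusters, since 2 of its 5 clusters held 415 against 51 cells and 587 against 25 cells.

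**Figure D4:**
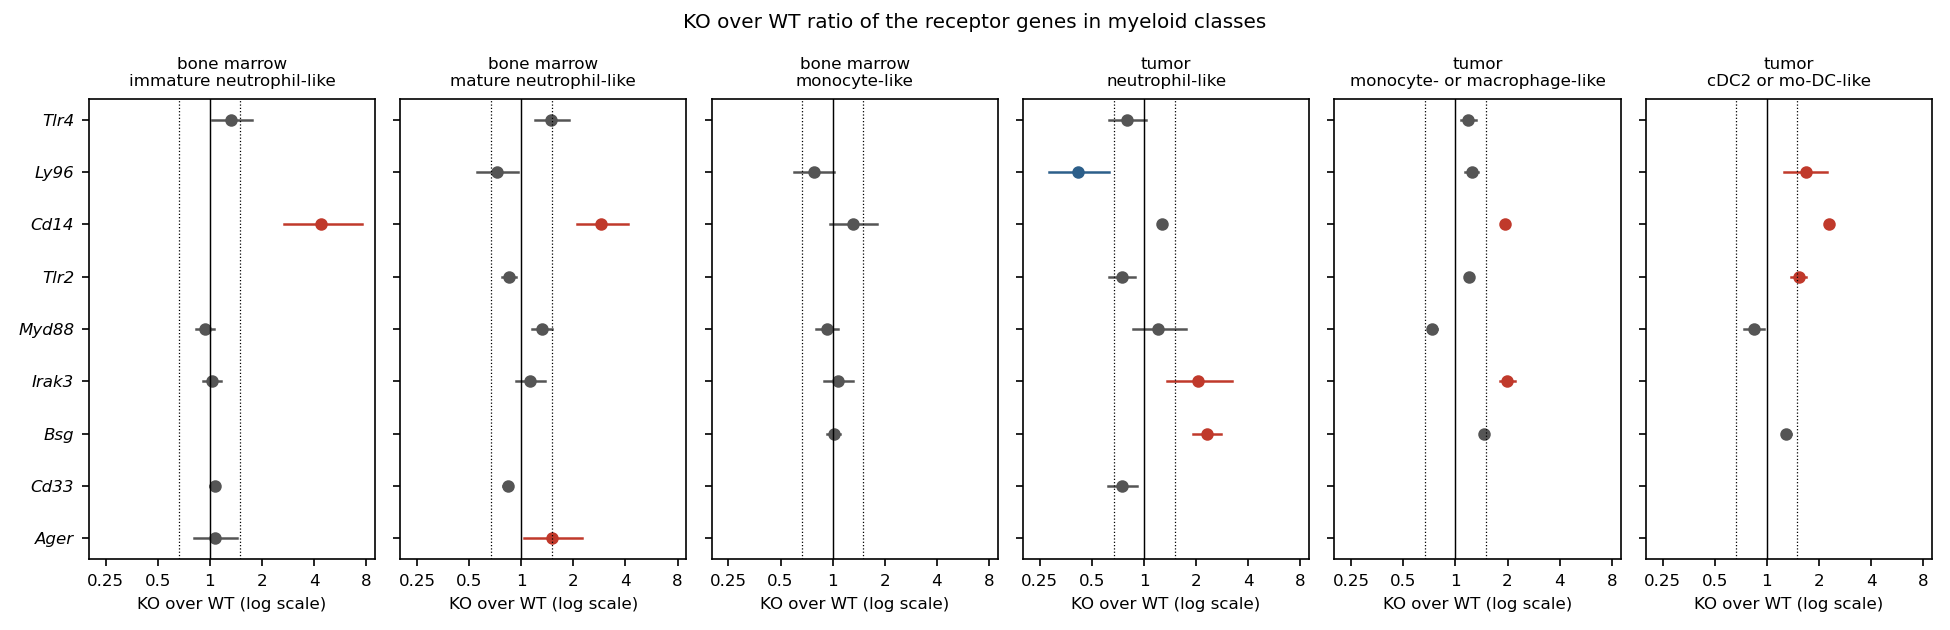
Ratio of KO over WT level of each member where it was counted, in 3 myeloid classes of bone marrow and 3 of tumor, on a log axis with 95% counting intervals, a line at 1 and dotted lines at 1.5-fold either way. Cd14 lies farthest right in bone marrow (4.38 in immature neutrophil-like cells), and Ly96 in tumor neutrophil-like cells lies farthest left (0.413).

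Between KO and WT tumor, Cd14 was higher in KO in monocyte-like or macrophage-like and type 2 dendritic-like cells, Irak3 was higher in neutrophil-like and in monocyte-like or macrophage-like cells, Bsg was higher in neutrophil-like cells, and Ly96 was lower in neutrophil-like cells. Of 27 member and class pairs, 8 were more than 1.5-fold higher in KO and 2 more than 1.5-fold lower, beside 6.81% higher and 10.9% lower of the 45830 pairs of other genes. The median ratio was 1.21 for the members and 0.949 for the other genes. All genes measured had a median log2 ratio of -0.34 in neutrophil-like and -0.20 in monocyte-like or macrophage-like cells. In neutrophil-like counts simulated without a difference, 23.1% of genes passed 1.5-fold in either direction through counting error. Cd14 and Ly96 in type 2 dendritic-like cells passed the limit of 0.2 of the highest level in KO only. Myd88 in migratory dendritic-like and in NK-like cells passed it in WT only. No Ager pair could be counted in the tumor.

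Cd14 in monocyte-like or macrophage-like cells was 4002 CPM in KO against 2079 CPM in WT, a ratio of 1.93 (1.90 to 1.95), beside 6.97% of other genes higher in that class. In type 2 dendritic-like cells it was 1837 and 804 CPM, a ratio of 2.28 (2.22 to 2.35), beside 6.87%. In neutrophil-like cells, where Cd14 is highest, the ratio was 1.27 (1.22 to 1.32). Lymphocytes also read more Cd14 in the KO tumor, with 160 CPM in KO against 15.6 CPM in WT T-like cells and a UMI in 32.0% and 4.84% of them. The mature neutrophil marker list moved with it: all 9 of its markers were read in T-like cells of both libraries, at a summed 1373 CPM in KO against 153 CPM in WT, and in type 2 dendritic-like cells at 18459 and 8324 CPM. In monocyte-like or macrophage-like cells, which themselves use some of those genes, the list summed to 36772 and 13147 CPM. How much of the sum was free RNA was not tested in these cells or in type 2 dendritic-like cells. With the T-like level subtracted, the Cd14 ratio was 1.86 in monocyte-like or macrophage-like and 2.13 in type 2 dendritic-like cells. The Cd14 difference between KO and WT was 1924 CPM and 1033 CPM in these classes and 144 CPM in T-like cells.

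The monocyte-like or macrophage-like cells of KO tumor came mostly from clusters 0, 3 and 4, and those of WT tumor mostly from clusters 1, 3 and 5. Within clusters Cd14 was higher in KO in cluster 3, led by C1q genes and Mrc1 (3294 against 1475 CPM, ratio 2.23), in cluster 5, led by interferon-response genes (ratio 1.63), and in cluster 4, led by Arg1, Inhba and Nos2 (5203 against 3444 CPM, ratio 1.51). Clusters 0 and 1 stayed under 1.5-fold, with 4037 against 2818 CPM and 2700 against 2436 CPM of Cd14. Tlr2, whose ratio over the class was 1.21 (1.16 to 1.25), was higher in KO in cluster 4 (346 against 140 CPM, ratio 2.47) and cluster 3 (255 against 141 CPM, ratio 1.81). Of the other genes, 7.08% were more than 1.5-fold higher in KO in cluster 3, 12.2% in cluster 4 and 7.05% in cluster 5. The clusters of 1 class thus differed among themselves in Cd14 and in Tlr2 by the size of the KO difference.

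Irak3 was 2.00 times as high in KO monocyte-like or macrophage-like cells (1.81 to 2.21) and 2.04 times as high in KO neutrophil-like cells (1.35 to 3.23, 23 UMIs in WT). The first value rested on cluster 4. That cluster held 1025 KO and 67 WT cells, with Irak3 at 135 CPM in KO against 37.4 CPM in WT, a ratio of 3.60 (2.21 to 6.32), and without it the ratio over the class was 1.15. Cluster 3 gave 43.4 against 27.2 CPM of Irak3, a ratio of 1.60. Both neutrophil clusters gave ratios of 2.02 and 2.20 for Irak3, the second from 5 WT UMIs. Of the other genes, 16.4% in neutrophil cluster 13 and 17.5% in neutrophil cluster 14 were more than 1.5-fold higher in KO.

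Bsg in tumor neutrophil-like cells was 582 CPM in KO against 253 CPM in WT, a ratio of 2.31 (1.93 to 2.79). Of the other genes in that class 13.4% were more than 1.5-fold higher in KO. The 2 neutrophil clusters differed in level and shared the direction, with 384 against 155 CPM of Bsg in cluster 13 (ratio 2.48) and 1005 against 524 CPM in cluster 14 (ratio 1.92). In these clusters 16.4% and 17.5% of other genes were more than 1.5-fold higher in KO. In monocyte-like or macrophage-like cells the Bsg ratio was 1.47 (1.42 to 1.52), and in T-like cells it was 1.03 (0.982 to 1.09).

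Ly96 in tumor neutrophil-like cells had the lowest ratio of the members counted in the tumor, at 25.2 CPM in KO (306 UMIs) and 61.0 CPM in WT (29 UMIs), a ratio of 0.413 (0.282 to 0.627). In that class 34% of other genes were more than 1.5-fold lower in KO, so a decrease there was common. Cluster 13 gave 0.521 and cluster 14 gave 0.248 for Ly96, beside 28.6% and 33.7% of other genes more than 1.5-fold lower in KO. Markers of T cells were also lower in these KO cells: 7 of 8 were read at a summed 17.4 CPM in KO against 8 of 8 at 187 CPM in WT, and monocyte markers, 8 of 8 read in both, summed to 544 and 1229 CPM. The part of either list in the Ly96 difference was not tested. Ly96 was 20.1 against 12 CPM in type 2 dendritic-like cells, a ratio of 1.68 (1.26 to 2.23), beside 12.1 and 11.3 CPM in T-like cells. In migratory dendritic-like cells the Ly96 ratio was 1.56 (1.05 to 2.29), beside 6.8% of other genes higher, and with doublets kept it was 1.38. Tlr2 in type 2 dendritic-like cells was 149 against 97.3 CPM, a ratio of 1.53 (1.38 to 1.69) that dropped to 1.11 at equal depth and to 1.16 with classes taken from WT cells only. Myd88 in migratory dendritic-like cells was 18.9 against 29.5 CPM, a ratio of 0.640 whose interval of 0.381 to 1.03 reached 1, from 22 KO UMIs, beside 8.19% of other genes lower.

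Tlr4 stayed within 1.5-fold in both tumor classes where it was counted, with a ratio of 0.795 (0.624 to 1.03) in neutrophil-like and 1.19 (1.08 to 1.31) in monocyte-like or macrophage-like cells. Relative to the median of all genes in the class, the first Tlr4 ratio was 1.01. By cluster, Tlr4 was within 1.5-fold in 7 of 8 tumor clusters and lower in KO in neutrophil cluster 14, at a ratio of 0.663 (0.413 to 1.13) from 18 WT UMIs. In that cluster 33.7% of other genes were more than 1.5-fold lower in KO. In type 2 dendritic-like cells, below 0.2 of the neutrophil level and so not counted, the Tlr4 ratio was 1.69 (1.19 to 2.37). Tlr2 and Cd33 in neutrophil-like cells gave 0.743 (0.625 to 0.889) and 0.745 (0.619 to 0.905), or 0.941 and 0.944 relative to that median. Myd88 in monocyte-like or macrophage-like cells gave 0.736 (0.691 to 0.783), or 0.844 relative to the median. Cd33 in monocyte-like or macrophage-like cells, at 40.0 against 19.9 CPM, lay below 0.2 of its neutrophil level and was not counted. Cluster 2, which stayed unnamed and was led by Vcan and Thbs1, held Cd33 at 61.4 against 36.8 CPM, a ratio of 1.67 (1.36 to 2.07). There 5.94% of other genes were more than 1.5-fold higher in KO.

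**Figure D5:**
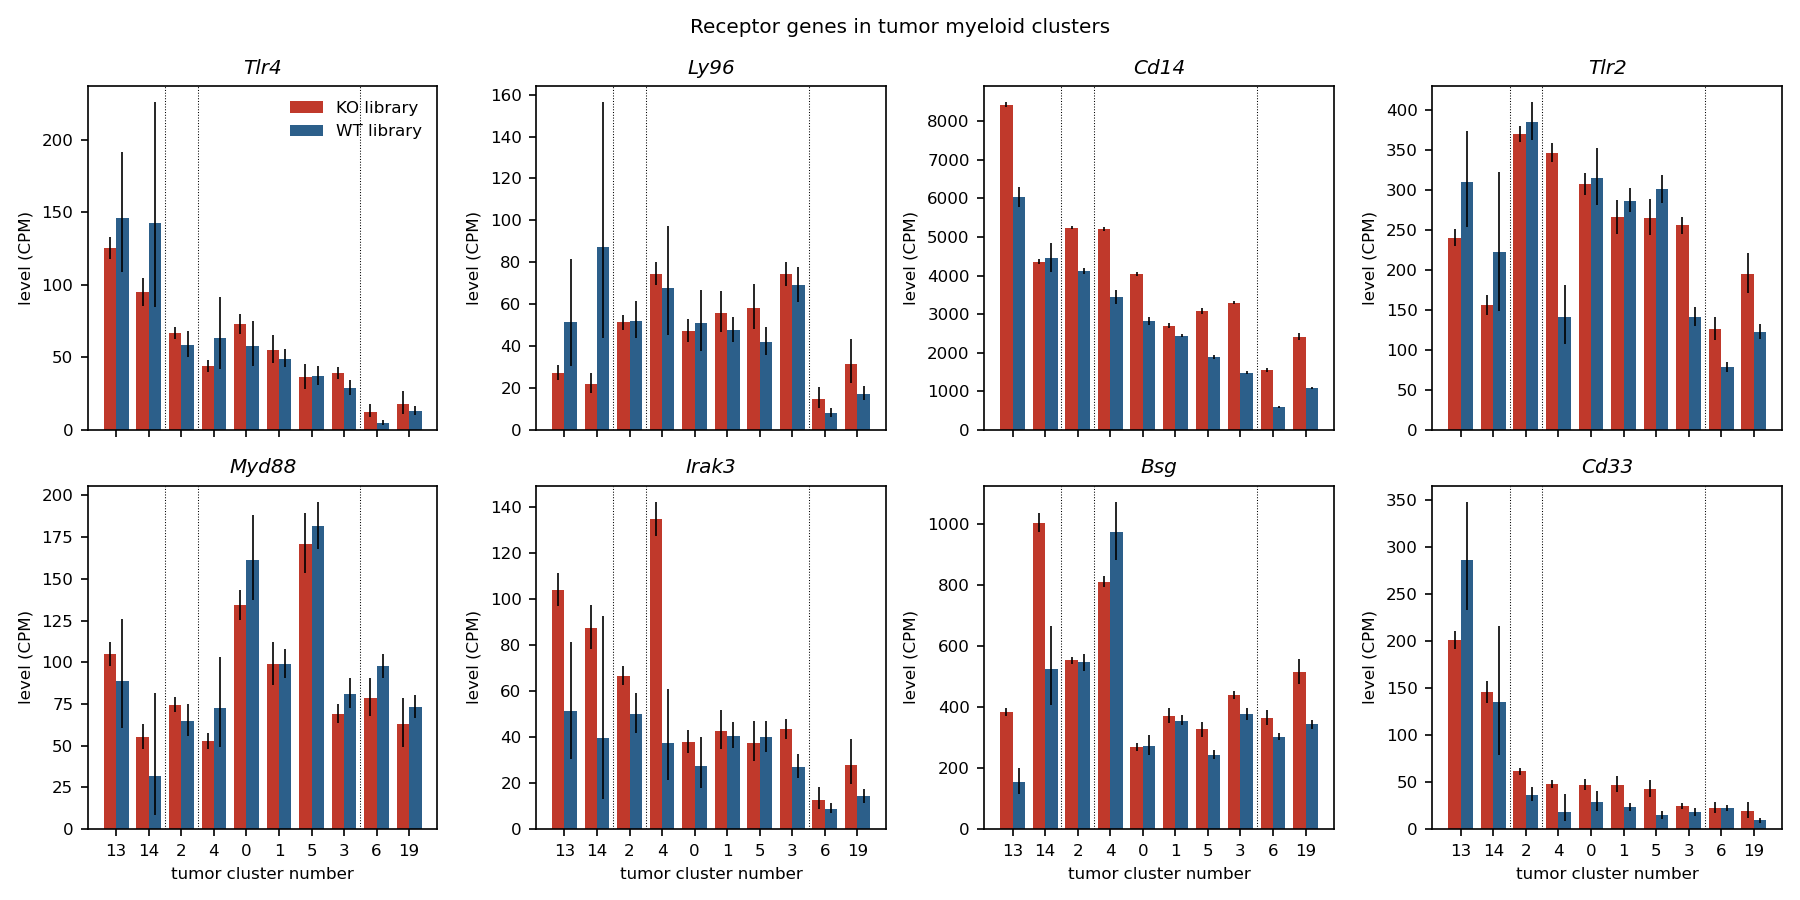
KO (red) and WT (blue) levels of 8 members in single tumor clusters, as bars in CPM from 0 with 95% counting intervals, grouped by dotted lines into neutrophil (13, 14), unnamed (2), monocyte or macrophage (4, 0, 1, 5, 3) and type 2 dendritic (6, 19) clusters. Irak3 separates most in cluster 4 (135 against 37.4 CPM), and Bsg separates in both neutrophil clusters.

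The wider pathway was read through 58 other genes in 6 lists: other Toll-like receptors, accessory proteins, adaptors and kinases, brakes, other reported S100A8 or S100A9 binding proteins, and further Siglecs. In bone marrow 11 of 281 pairs were higher in KO and 17 lower, with a median ratio of 0.944, and in the tumor 10 of 192 were higher and 19 lower, with a median of 1.02, beside the percentages of other genes given for the members. Among other Toll-like receptors, 0 of 11 bone marrow pairs were higher and 1 lower, and 2 of 13 tumor pairs were higher and 2 lower. Tlr13, a receptor of bacterial ribosomal RNA, was 54.9 against 86.3 CPM in tumor neutrophil-like cells, a ratio of 0.637 (0.464 to 0.895). Accessory proteins gave 1 higher and 5 lower of 20 tumor pairs. Cd180 and Ly86, which pair as a receptor complex related to Tlr4 and Ly96, were 20.3 against 41.8 CPM and 165 against 332 CPM in monocyte-like or macrophage-like cells, ratios of 0.487 and 0.498. Adaptors and kinases gave 5 higher and 7 lower of 148 bone marrow pairs and 2 higher and 5 lower of 99 tumor pairs. Irak1, the kinase recruited by MyD88, was 71.5 against 45.0 CPM in bone marrow mature neutrophil-like cells, a ratio of 1.59 (1.26 to 2.01), and Ikbkg, a subunit of the kinase that frees NF-kB, was 13.8 against 23.8 CPM, a ratio of 0.579. Irf5, a transcription factor downstream of MyD88, was 150 against 247 CPM in tumor monocyte-like or macrophage-like cells, a ratio of 0.606.

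Brakes gave 4 higher and 3 lower of 52 bone marrow pairs and 4 higher and 3 lower of 41 tumor pairs. Tnfaip3, which encodes the NF-kB inhibitor A20, was 313 against 193 CPM in monocyte-like or macrophage-like cells (ratio 1.62) and 1082 against 625 CPM in neutrophil-like cells (ratio 1.73). Nfkbia, which encodes the inhibitor IkB-alpha and is itself an NF-kB target, was 9934 against 6591 CPM in neutrophil-like cells, a ratio of 1.51. The inhibitory receptor gene Cd300a differed the other way, at 113 against 216 CPM in monocyte-like or macrophage-like cells (ratio 0.522) and a ratio of 0.480 in neutrophil-like cells. Of the other genes in tumor neutrophil-like cells, 13.4% were more than 1.5-fold higher in KO and 34% more than 1.5-fold lower. In tumor monocyte-like or macrophage-like cells these shares were 6.97% and 14.6%. Other binding proteins gave 1 higher and 3 lower of 22 bone marrow pairs and 0 higher and 1 lower of 13 tumor pairs, the last being Alcam, an adhesion molecule, at 72.2 against 131 CPM in neutrophil-like cells, a ratio of 0.554. Further Siglecs gave 1 higher and 1 lower of 7 bone marrow pairs and 1 higher and 3 lower of 6 tumor pairs. Siglecf was 15.5 CPM in KO tumor neutrophil-like cells against 1 UMI in WT, a ratio of 7.36 (1.30 to 292). In bone marrow mature neutrophil-like cells, a case named after its value was seen because its 96 UMIs lay under the minimum for naming, Siglecf was 14.2 against 3.46 CPM, a ratio of 4.11 (1.91 to 10.5). Siglece was lower in KO tumor neutrophil-like cells, at 71.0 against 112 CPM.

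Over 36 class and library values of both tissues and 8224 genes, the genes whose log2 levels lay closest to each member were named by Pearson's r, as a description with no test, since the points share libraries and tissues. Tlr4 lay closest to Sgms2 (r = 0.893) and to Fcgr4 (0.854), the gene of an activating IgG receptor. Fcgr4 was also among the 2 closest to Tlr2 (0.915), after Cd300ld (0.925). Cd14 lay closest to Clec4n (0.945) and Cxcl2 (0.942), a fungal lectin receptor and a neutrophil chemokine. Cd33 lay closest to Pi16 (0.911) and B430306N03Rik (0.900), and Ly96 to Gngt2 (0.836) and Trafd1 (0.828). The closest gene given for Irak3 was Dmxl2 (0.848). The 2 closest were for Myd88 Atg3 (0.884) and Bach1 (0.843), for Bsg Tmem33 (0.878) and Txnl1 (0.867), and for Ager Txnl4b (0.917) and Kbtbd7 (0.907). The Ager values join marrow levels with tumor levels that lay close to the floor.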

How the data were processed

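The authors deposited whole-number UMI counts for every gene and cell barcode. Per the file headers, the bone marrow tables came from Cell Ranger 3.1.0 and the tumor tables from 6.0.2. Cell Ranger 6.1.2, R 4.2.1, Seurat 4.3.0 and the builds mm10 and GRCm38 are listed in the submitters' processing notes. Every barcode had at least 500 UMIs. A cell needed 200 genes or more and no more than 10% of its UMIs from mitochondria. Scrublet's automatic limit removed 4.60% (WT bone marrow) and 7.71% (KO tumor) as doublets. It marked under 0.5% in KO bone marrow and WT tumor, where the highest scores at a rate of 0.8% per 1000 barcodes were removed instead (8.85% and 9.62%). Each tissue was clustered with scanpy 1.11.5 (Leiden resolution 1, 2000 variable genes without the members, 30 components, 15 neighbors) and named from 22 marker lists, by a rule whose details were set after the clusters had been seen. The members and gene lists were chosen with earlier results of these data known. The named genes are all 9 members, up to 3 highest and 3 lowest ratios per list in neutrophil, monocyte and macrophage classes (at least 100 UMIs), and the 2 most similar genes per member (1 of them is not reported here). UMIs were summed per class and library. Levels have exact Poisson, shares exact Clopper-Pearson and ratios exact conditional intervals (scipy 1.17.1). Shares were also computed after thinning to 1000 (bone marrow) or 2000 UMIs (tumor). The same code was tested on simulated data. Of genes simulated without a difference, 23.1% passed 1.5-fold in either direction in tumor neutrophil-like cells. That share was 1.7% in tumor monocyte-like or macrophage-like, 3.9% in bone marrow mature neutrophil-like and 1.6% in bone marrow monocyte-like cells. Of genes simulated 2-fold higher in KO, 78% passed 1.5-fold in tumor neutrophil-like cells. Alternatives were 8 planned settings and 3 chosen after seeing the data.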

Additional observations from a re-analysis of the deposited data

How the results depend on the processing

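No paired analysis was possible because each group is 1 library. No ratio of a member changed direction past the threshold under the 8 planned and 3 added settings. In bone marrow the 4 member pairs higher in KO became 7 with all UMIs in the total, 7 as means over cells and 1 under a minimum of 200 UMIs, and the 0 lower became 1 with thinned cells and 1 with doublets kept. The 11 higher pairs of other pathway genes there became 20 with means over cells and 2 under that minimum, and the 17 lower became 8 with thinned cells and 5 under that minimum. In the tumor the 8 higher member pairs became 4 with classes taken from WT cells only and 5 at clustering resolution 2, and the 2 lower became 1 with classes taken from WT cells and 1 under that minimum. Other pathway genes there moved from 10 to 20 higher and from 19 to 12 lower with ratios divided by the class median, a setting chosen after seeing the data. The filter on UMIs and the thinning left fewer pairs to count; the cause of the other moves was not tested. Cd14 stayed past 1.5-fold in every setting with a value in bone marrow immature (3.20 to 6.62) and mature (2.34 to 3.39) neutrophil-like and in tumor monocyte-like or macrophage-like (1.52 to 2.21) and type 2 dendritic-like cells (1.61 to 2.64), as did Bsg (1.62 to 2.92), Irak3 (1.67 to 2.58) and Ly96 (0.349 to 0.652) in tumor neutrophil-like cells. Tlr4 in granulocyte progenitor-like cells dropped to 1.25 with classes taken from WT cells. The class with the highest level was the same in 131 of 144 checks of gene, library and setting. Ager values in the tumor are limited by their few UMIs, and all WT tumor neutrophil-like values rest on 214 cells.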
